A study of Homo sapiens with 5 samples.

Results

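The 5 genes described here encode the machinery that turns plasminogen into plasmin at the cell surface, and its brakes. They are PLAU, which encodes urokinase (the urokinase-type plasminogen activator), PLAT, which encodes the tissue-type plasminogen activator, PLAUR, which encodes the urokinase receptor, and the serpin protease inhibitors SERPINE2 (protease nexin 1) and SERPINB2 (plasminogen activator inhibitor 2). They were taken by name, through the Ensembl gene ID of the current symbol. All 5 were found among the 19936 genes of the files, and all 5 passed the minimum level for testing. They are a chosen part of the plasminogen system and do not cover all of its inhibitors.

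RNA was sequenced from LX-2, an immortalised human line derived from stellate cells, which lay down scar matrix in an injured liver. All cells had been transfected 48 h earlier with small interfering RNA (siRNA). The control group (siControl 1 and 2) received control siRNA, and the knockdown group (siLIX1L 1, 2 and 3) received siRNA against LIX1L. This gene encodes a protein that is predicted to bind double-stranded RNA through one of its domains. Whether the numbers in the labels stand for replicates of the same siRNA or for different siRNA sequences is not stated. No other agent, passage or batch is given, LX-2 is 1 line, and the labels do not say whether libraries of a group were separate cultures, so the p-values rest on a spread between libraries that may be technical.

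Plasminogen circulates as an inactive precursor, and urokinase or tissue-type activator cut it to plasmin, a protease that dissolves fibrin, degrades matrix glycoproteins and activates several matrix metalloproteinases. The urokinase receptor is held in the membrane by a lipid anchor and keeps urokinase at the cell surface. Serpins stop these proteases by presenting a loop that the protease cuts, after which the 2 proteins stay locked together. In the liver, stellate cells are known as a source of both activators and inhibitors, and plasmin activity is one of the controls on matrix turnover.

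The depth was 14856104 to 18294056 reads over genes per library, and levels are given as RPM (reads per 1000000). LIX1L was at 30.9 ± 6.41 RPM (SD, n = 2) with control siRNA and 5.78 ± 1.86 RPM (SD, n = 3) with LIX1L siRNA, 5.36-fold lower (limma adjusted p = 0.0384). Leaving out any 1 siLIX1L library ended this call (limma adjusted p = 0.0715 to 0.228), with the level still 4.52-fold to 6.04-fold lower; no gene passed in those 3 fits. With all libraries, edgeR (adjusted p = 0.0389) and DESeq2 (adjusted p = 9.48e-09) also called LIX1L lower. Of 10 stellate cell markers, 8 had reads in every library, with COL1A1 the most abundant (1813 to 4815 RPM); DES was at 0 to 0.711 RPM and LRAT, an enzyme of retinoid storage in resting stellate cells, had no read in any library. Of the 6 stellate markers that limma tested, 5 had negative differences (median -0.45) and none passed. DESeq2 called 2 of the 8 stellate markers it tested, both lower and named after their values were seen, beside 6.22% of all genes called lower. ACTA2, smooth muscle actin of activated stellate cells, was 3.48-fold lower with LIX1L siRNA (edgeR adjusted p = 0.0459, with 1.44% of all genes called) and the collagen chain COL1A2 2.20-fold lower (DESeq2 adjusted p = 0.00517, edgeR adjusted p = 0.0699). COL1A1, in contrast, was 1.03-fold higher, and the limma difference of COL3A1 was -0.009. A count of 0 allows up to 3 reads, or 0.164 to 0.202 RPM, for counting error only. Summed markers of hepatocytes came to 1.52 to 6.45 RPM, of macrophages to 5.73 to 37.6 RPM (highest in siControl 2, mainly CD14) and of endothelial cells to 4.43 to 9.75 RPM. CD14 was 3.50-fold lower with LIX1L siRNA (DESeq2 adjusted p = 0.0111, limma adjusted p = 0.159). Cholangiocyte markers came to 31.4 to 105 RPM, nearly all of it SOX9, which was 2.41-fold higher with LIX1L siRNA (DESeq2 adjusted p = 0.00792, limma adjusted p = 0.103). Mitochondrially encoded genes took 2.24 and 3.35% of the reads of siControl 1 and 2 and 1.08, 1.29 and 1.14% of those of siLIX1L 1, 2 and 3, so that this share, too, differed between the groups. The part of these differences in the lower PLAT, PLAU and PLAUR of the siLIX1L libraries was not tested. ALB, CD68, CDH5 and EPCAM, each on the list of one of these cell types, stayed at or under 0.219 RPM. Some others on these lists were higher, with SERPINA1 at 1.52 to 6.34, KDR at 1.26 to 4.30, TEK at 1.88 to 4.50 and KRT7 at 1.06 to 4.10 RPM.

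None of the 5 genes passed the test between the groups (limma on log2(FPKM + 1), FPKM being RPM per kilobase of gene; Benjamini-Hochberg adjusted p under 0.05). The background was 121 of 6464 tested genes past that threshold, or 1.87%. PLAT came closest and was lower in each siLIX1L library than in both controls. The inhibitor SERPINE2 and the activator PLAU differed most among the 3 siLIX1L libraries themselves, with siLIX1L 3 far below siLIX1L 1 and 2. SERPINB2 differed most between the 2 controls. On the log2(FPKM + 1) scale PLAUR had the smallest difference between the groups, and by the ratio of mean RPM SERPINE2 did (1.15-fold, beside 1.17-fold). All 5 differences were negative, where 50.6% of all tested genes had a negative difference. The median of the 5 was -0.63 on the log2(FPKM + 1) scale, beside -0.01 over all genes tested. That median is the value of SERPINE2; without siLIX1L 3, 4 of the 5 differences were negative and the median was -0.37. At an unadjusted p under 0.05, PLAT alone of the 5 passed in limma, where 1785 of all 6464 genes did, and in edgeR, where 3403 of 13096 did. After adjustment edgeR, too, called none of the 5.

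**Figure D1:**
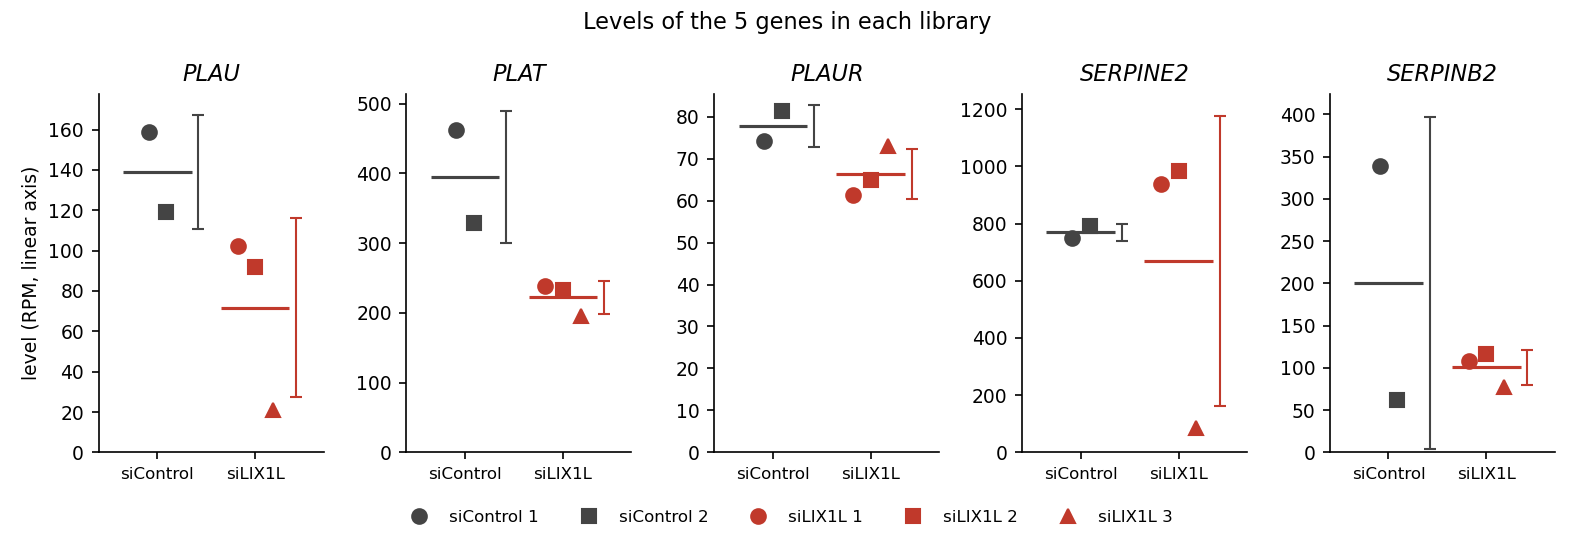
Level of each of the 5 genes in RPM (linear axes from 0, a separate scale for each gene) in the 2 siControl and 3 siLIX1L libraries. Points are libraries, horizontal lines are group means and the bars beside them are SDs. siLIX1L 3 is the lowest point for PLAU (20.8 RPM) and SERPINE2 (85.2 RPM), and siControl 1 is the highest for SERPINB2 (339 RPM).

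PLAU, or urokinase (ENSG00000122861, GRCh38 chromosome 10, 73909177 to 73917497, plus strand), is secreted as a single chain that plasmin and other proteases activate. It stood at 159 and 119 RPM in siControl 1 and 2, and at 103, 91.9 and 20.8 RPM in siLIX1L 1, 2 and 3. All 3 knockdown libraries lay below both controls, but siLIX1L 3 was 4.68-fold below the mean of siLIX1L 1 and 2. The group means were 139 ± 28.1 RPM (SD, n = 2) and 71.7 ± 44.4 RPM (SD, n = 3), a 1.94-fold lower mean with LIX1L siRNA. The log2(FPKM + 1) difference was -1.09 (SE 0.57, limma adjusted p = 0.268). Without siLIX1L 3 it was -0.47 (limma adjusted p = 0.215), and the mean RPM of the knockdown group was then 1.43-fold below the controls. The gene C10orf55 overlaps PLAU on the other strand, and the sources used here do not say whether counting kept strand. C10orf55 itself was counted at 3 to 12 reads per library, where PLAU had 370 to 2363.

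PLAUR encodes the receptor that binds urokinase and, through partners such as integrins, passes signals into the cell (ENSG00000011422, chromosome 19, 43646095 to 43670547, minus strand). The controls held 74.3 and 81.3 RPM of it, and siLIX1L 1, 2 and 3 held 61.3, 65.0 and 73.0 RPM. The groups did not overlap, though siLIX1L 3 came close to siControl 1. The means were 77.8 ± 4.96 RPM (SD, n = 2) and 66.4 ± 5.97 RPM (SD, n = 3), with a log2(FPKM + 1) difference of -0.17 (SE 0.13, limma adjusted p = 0.426). Thus siLIX1L 3, the library with the least urokinase mRNA, held the most receptor mRNA of the 3 knockdown libraries. The small RNA pseudogene RN7SL368P lies within PLAUR in the annotation and has no entry of its own in the files.

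Because the title of the series names stabilization as an action of LIX1L, the AU-rich nonamer TTATTTATT, a known class of destabilising element, was looked for on the sense strand of the 3′ untranslated regions. The search used 1 principal transcript per gene. PLAUR and SERPINB2 each held 1 copy and PLAU, PLAT and SERPINE2 none. Of 18707 such regions of at least 30 bases, 7.60% held a copy. Among regions within 20% of the length of the gene's own, the share was 2.03% for PLAUR and 2.86% for SERPINB2. The shorter pentamer ATTTA, which the nonamer contains, occurred once in PLAUR, 4 times in SERPINB2 and 2 times in each of the other 3 genes. The sites are printed 5′ to 3′ with the nonamer in capitals, from the GENCODE 29 transcripts, at chr19:43648600-43648629 on the minus strand for PLAUR and chr18:63903572-63903601 on the plus strand for SERPINB2 (GRCh38).
PLAUR: aatattcataTTATTTATTttatacttaca
SERPINB2: ttttactttgTTATTTATTattttatataa
Between the controls PLAUR differed by 1.09-fold and SERPINB2 by 5.50-fold, and the part of the element in the level of either gene was not tested. A match of letters is a description and not evidence of a working site.

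SERPINB2 encodes an inhibitor of urokinase that stays largely inside cells and that inflammatory stimuli are known to induce (ENSG00000197632, chromosome 18, 63871692 to 63903890, plus strand). Its level was 339 RPM in siControl 1 but 61.7 RPM in siControl 2. In siLIX1L 1, 2 and 3 it was 108, 116 and 77 RPM, so that all knockdown libraries lay between the 2 controls. The means were 201 ± 196 RPM (SD, n = 2) and 101 ± 20.8 RPM (SD, n = 3), and the log2(FPKM + 1) difference was -0.51 (SE 0.53, limma adjusted p = 0.570). Either control alone decided the sign. Against siControl 2 the knockdown mean was 1.63-fold higher (log2 difference 0.49, limma adjusted p = 0.139), and against siControl 1 it was 3.38-fold lower (log2 difference -1.50, limma adjusted p = 0.04). In these 2 fits the lone control is assumed to vary like the other group. The 2.45 log2 units between the controls were the 20th largest of the 6464 tested genes, larger than in 99.7% of them. The controls also differed in CD14, at 8.81 RPM in siControl 1 and 35.7 RPM in siControl 2, and in the mitochondrial share given above. Their part in the SERPINB2 values was not tested. SERPINB10, which overlaps SERPINB2 on the same strand, had 0 to 4 reads.

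SERPINB2 and PLAUR were also the only ones of the 4 genes looked up whose promoter in the RefSeq set (300 bases around the transcript start, GRCh38.p14) held the heptamer TGANTCA, the core sequence bound by AP-1 factors, which reads the same on both strands. It was in 7.71% of 35116 promoters of this length. The promoters of PLAU and SERPINE2 (2 each) held none in these windows. The promoters are shown 5′ to 3′ on the gene's strand with the heptamer in capitals, because these are the same 2 genes that hold the nonamer. The heptamer begins 186 bases before the PLAUR start and 102 before that of SERPINB2. They lie at chr19:43670120-43670419 (minus strand) and chr18:63887455-63887754 (plus strand).
PLAUR: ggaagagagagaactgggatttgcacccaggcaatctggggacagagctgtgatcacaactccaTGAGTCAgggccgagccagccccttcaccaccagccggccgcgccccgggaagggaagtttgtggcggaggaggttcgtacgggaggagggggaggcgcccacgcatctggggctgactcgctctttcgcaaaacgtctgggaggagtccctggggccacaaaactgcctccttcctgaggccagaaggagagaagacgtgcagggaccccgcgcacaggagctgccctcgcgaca
SERPINB2: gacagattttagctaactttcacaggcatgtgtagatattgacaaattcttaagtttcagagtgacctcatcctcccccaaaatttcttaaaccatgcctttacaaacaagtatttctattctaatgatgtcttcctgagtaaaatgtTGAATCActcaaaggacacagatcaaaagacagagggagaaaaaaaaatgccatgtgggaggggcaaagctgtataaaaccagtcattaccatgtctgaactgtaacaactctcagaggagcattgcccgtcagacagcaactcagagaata

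SERPINE2 encodes protease nexin 1, a secreted serpin that binds heparan sulfate and inhibits thrombin, urokinase, tissue-type activator and plasmin (ENSG00000135919, chromosome 2, 223975112 to 224039319, minus strand). Its level was 748 and 790.4 RPM in siControl 1 and 2, then 937 and 985 RPM in siLIX1L 1 and 2, but 85.2 RPM in siLIX1L 3. The first 2 knockdown libraries were thus above both controls and the third was 11.3-fold below their mean. In reads, siLIX1L 3 had 1518, against 13927 and 14880 in siLIX1L 1 and 2, and the counting error of the smallest of these counts is 2.57%. The group means, 769 ± 29.8 RPM (SD, n = 2) and 669 ± 506 RPM (SD, n = 3), describe no library of the knockdown group. The log2(FPKM + 1) difference was -0.63 (SE 0.83, limma adjusted p = 0.658). Without siLIX1L 3 its sign turned, to 0.30 (limma adjusted p = 0.269), with a mean RPM 1.25-fold above the controls.

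Among all 6464 tested genes, SERPINE2 had the widest range within the siLIX1L group, 3.52 on the log2(RPM + 0.5) scale, against a median of 0.29. PLAU, with 2.28, was the 10th widest. Between siLIX1L 1 and 2 the gap was 0.07 for SERPINE2 and 0.16 for PLAU, the latter larger than in 71.8% of genes. Over all tested genes the median gap was 0.10 between siLIX1L 1 and 2 and 0.40 between the controls. Between the controls SERPINE2 was among the steadier genes (0.08, smaller than in all but 10.8% of genes). In siLIX1L 3, 129 genes (2.0%) were at least 2-fold below the mean of siLIX1L 1 and 2 and 129 at least 2-fold above it. Only 6 were at least 4-fold below it, SERPINE2 and PLAU among them. The other 3 genes lay nearer to siLIX1L 1 and 2. PLAT in siLIX1L 3 was at 0.828 of their mean, SERPINB2 at 0.685 (the 503rd lowest gene) and PLAUR at 1.16. LIX1L itself was at 0.533 of that mean in siLIX1L 3. The labels name no batch or siRNA sequence, the table of siLIX1L 3 is the only one deposited with counts and lengths, and the source of the difference was not tested. In bulk RNA, fewer cells that express a gene and less of its RNA per cell cannot be told apart.

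**Figure D2:**
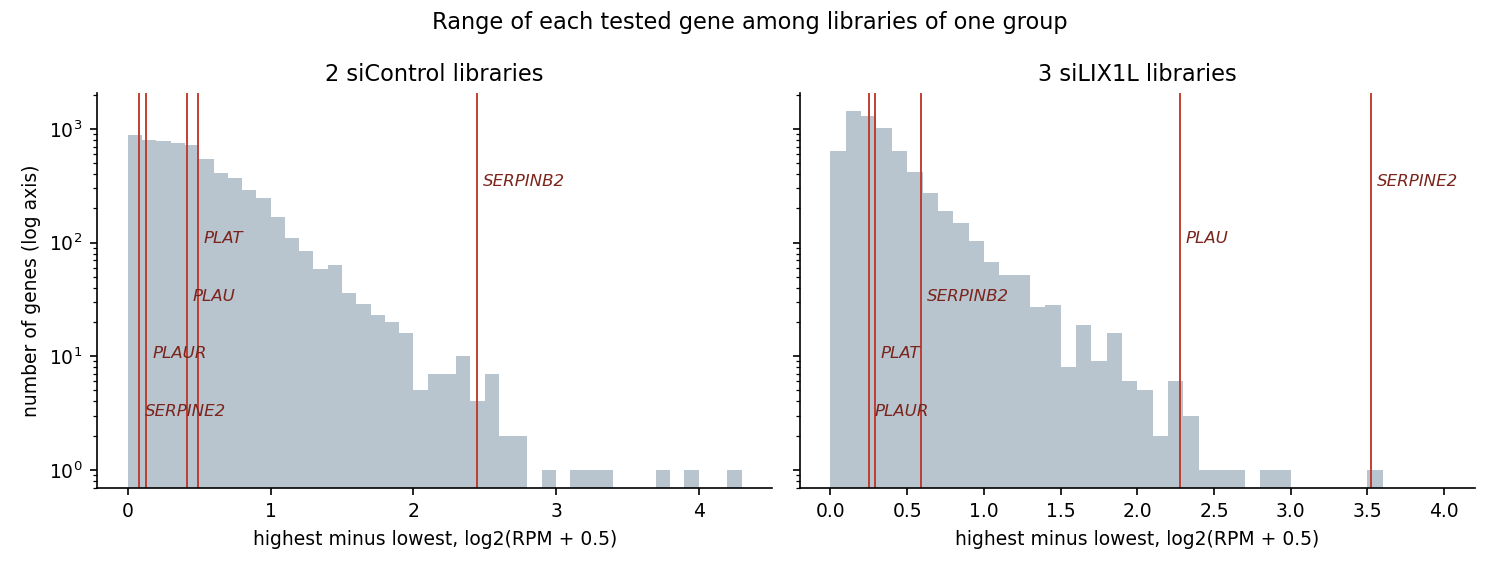
Histograms of the range (highest minus lowest log2(RPM + 0.5)) of the 6464 tested genes among the 2 siControl libraries (left) and the 3 siLIX1L libraries (right), with the number of genes on a log axis. Red lines mark the 5 genes. SERPINE2 (3.52) lies at the far end of the right panel with PLAU at 2.28, and SERPINB2 (2.45) stands out in the left panel.

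PLAT, the tissue-type plasminogen activator (ENSG00000104368, GRCh38 chromosome 8, 42175233 to 42207724, minus strand), is best known for dissolving clots and is bound to fibrin and to cell surfaces. Its level was 462 and 328 RPM in siControl 1 and 2, and 238, 233 and 195 RPM in siLIX1L 1, 2 and 3. All 3 knockdown libraries lay below the lower control. Their range, 0.29 on the log2(RPM + 0.5) scale, was near the median of all tested genes (0.29). The closeness of siLIX1L 1 and 2 (0.03 apart) was not particular to PLAT, as the median gap given above shows. The means were 395 ± 94.4 RPM (SD, n = 2) and 222 ± 23.6 RPM (SD, n = 3), 1.78-fold lower with LIX1L siRNA. The log2(FPKM + 1) difference was -0.73 (SE 0.19) and did not pass (limma adjusted p = 0.0811). edgeR on the recovered reads did not call it either (log2 fold change -0.84, adjusted p = 0.0741), with 1.44% of 13096 genes called. DESeq2 called it lower (log2 fold change -0.83, adjusted p = 0.0117), with 6.22% of 13334 genes called lower and 12.5% in either direction. Of the 2 controls, siControl 1 held 1.41-fold more PLAT. The fold was 1.48 without siControl 1 and 2.08 without siControl 2. Without each siLIX1L library in turn, the limma adjusted p was 0.138 to 0.321. It was 0.285 with siLIX1L 1 and 2 averaged, 0.183 with the replicate block and 0.155 without a minimum level.

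Taking the 5 genes as a group, PLAU, PLAUR and PLAT had all 3 siLIX1L libraries below both controls, and SERPINE2 and SERPINB2 overlapped. Such a separation downwards was seen in 23% of all tested genes, and in either direction in 46.5%. The 2 activators and the receptor were thus on the lower side in every knockdown library, by 1.17-fold to 1.94-fold in their means, while neither inhibitor had a direction that all libraries shared. The negative differences of PLAU, PLAUR and PLAT kept their sign under every alternative setting that tested them. With groups that do not overlap, leaving out a library, averaging libraries or the replicate block could not turn that sign.

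**Figure D3:**
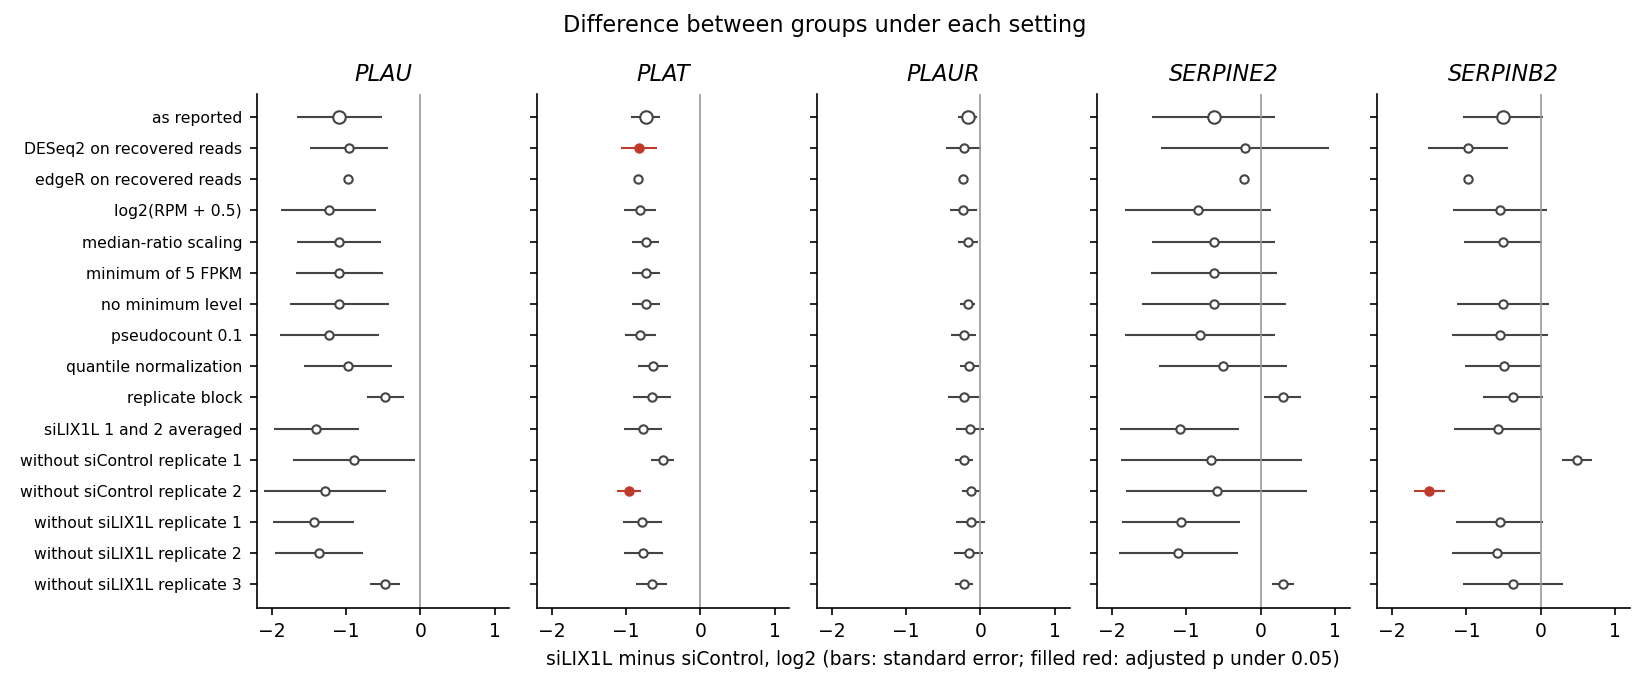
Difference between siLIX1L and siControl (log2 scale of each setting, bars ± 1 standard error where the tool gives one) for each of the 5 genes under the reported test and each alternative. Filled red points passed an adjusted p of 0.05. PLAT passed under 2 settings and SERPINB2 under 1, and SERPINE2 changed sign without siLIX1L 3 and with the replicate number as a block.

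Levels of different genes were compared per kilobase of mRNA, as RPM divided by the length of the principal GENCODE 29 transcript, since the deposited FPKM use the whole gene with its introns (8.321 kb for PLAU but 64.208 kb for SERPINE2). In the controls, SERPINE2 led with 351 ± 13.6 RPM per kb (SD, n = 2), followed by PLAT with 146 ± 34.9, SERPINB2 with 93.1 ± 91.1, PLAU with 59.9 ± 12.1 and PLAUR with 50.2 ± 3.2. SERPINE2 stood above PLAT by more than the spread. SERPINB2 overlapped PLAT, PLAU and PLAUR in its range, and PLAU and PLAUR overlapped each other. The median over genes with reads was 5.60 to 6.78 RPM per kb in the 5 libraries, and each of the 5 genes lay above it in every library. SERPINE2 ranked 131st and 133rd of 19665 genes with control siRNA and 83rd and 70th in siLIX1L 1 and 2, but 2063rd in siLIX1L 3. PLAU went from ranks 1108 and 1551 to 1787, 1991 and 6643. PLAT stayed between ranks 342 and 961 in all 5 libraries.

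In the LIX1L siRNA group the order was SERPINE2 (305 ± 231 RPM per kb), PLAT (82.1 ± 8.71), SERPINB2 (46.6 ± 9.63), PLAUR (42.9 ± 3.86) and PLAU (30.9 ± 19.2), all n = 3. PLAT lay above SERPINB2, PLAUR and PLAU in each knockdown library. The balance between the inhibitor SERPINE2 and the activator it can block therefore depended on the library. The ratio of SERPINE2 to PLAT mRNA per kb was 2.0 and 2.97 in siControl 1 and 2, then 4.85 and 5.22 in siLIX1L 1 and 2, and 0.539 in siLIX1L 3. In siLIX1L 3 alone the activator mRNA exceeded that of the inhibitor. Against PLAU, SERPINE2 stood at a ratio of 4.98 and 7.02 with control siRNA and of 9.67, 11.3 and 4.34 in siLIX1L 1, 2 and 3, so it differed less between libraries, both genes being low in siLIX1L 3. Between the 2 activators, the ratio of PLAT to PLAU stayed at 1.99 to 2.49 in 4 libraries and was 8.06 in siLIX1L 3. Urokinase and receptor mRNA were near equal in 4 libraries (PLAU over PLAUR 0.944 to 1.43) and at 0.190 in siLIX1L 3.

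**Figure D4:**
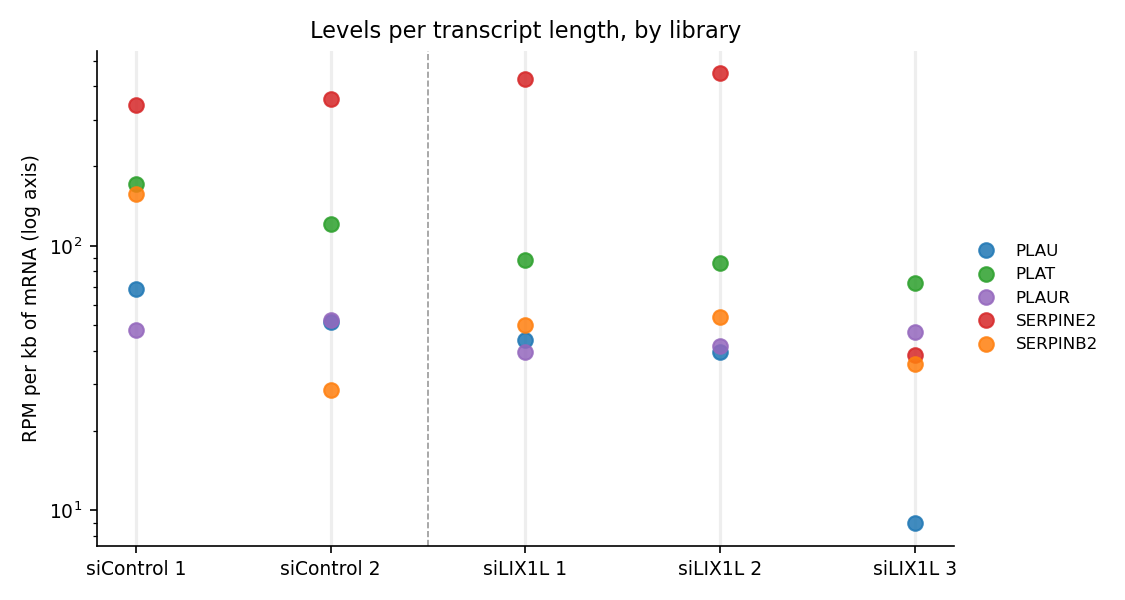
Level of the 5 genes in RPM per kilobase of principal transcript (log axis) in each library, with a dashed line between the groups. SERPINE2 is the highest point in 4 libraries and is at 38.8 in siLIX1L 3, where PLAU is at 8.95.

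The genes with the most similar profiles were sought among 9629 others with a mean of at least 10 RPM, by the root mean square distance between log2(RPM + 0.5) profiles over the 5 libraries, each centred on its own mean. Nearest to PLAU were PLP2 (distance 0.16 on that scale, median of all genes 1.05), PCLAF (0.18) and HDDC2 (0.27). PLP2 had 287 and 220 RPM with control siRNA and 224, 213 and 49.8 RPM in siLIX1L 1, 2 and 3. Among the nearest to SERPINE2 were GTF3C6 (0.52) and PLP2 (0.52), with a median of 1.37, and PLAU itself was at 0.54. For PLAT they were LDAF1 (0.06), CNIH4 (0.07) and BTG1 (0.07), for PLAUR CROT (0.02), METTL22 (0.03) and APEH (0.04), and for SERPINB2 TNFSF4 (0.19), RNF41 (0.20) and ALDH1L2 (0.22). PLP2 is on the lists of both PLAU and SERPINE2. TNFSF4 had 83.5 RPM in siControl 1 and 21.3 to 31.4 RPM in the other 4 libraries.

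A list of 22 other genes of the plasminogen system held plasminogen itself, docking proteins, further activators and inhibitors, and clearance receptors. Of the 10 that could be tested, none passed limma, 7 had negative differences and the median was -0.41, beside -0.01 over all genes. Plasminogen itself (PLG) was at 0 to 0.199 RPM, at or below the level that a count of 0 allows, with 3 reads or fewer in each library. The most abundant were ENO1 and ANXA2, a glycolytic enzyme and an annexin that both bind plasminogen at the cell surface. ENO1 was at 2937 ± 1073 RPM (SD, n = 2) against 1839.8 ± 251 RPM (SD, n = 3, limma adjusted p = 0.196), and ANXA2 at 2521 ± 180.2 against 1753 ± 435 RPM (limma adjusted p = 0.193). LRP1, the receptor that takes up complexes of activators with their inhibitors, was at 306 ± 151 against 326 ± 69.1 RPM (limma adjusted p = 0.813), and its difference changed sign without siControl 1, without siLIX1L 3 and with the replicate block. DESeq2 called 3 of the 15 genes of this group that it tested, all lower, beside 6.22% of all genes called lower, and they are named after their values were seen. VTN, or vitronectin, a matrix protein that the urokinase receptor binds, was 3.50-fold lower (DESeq2 adjusted p = 4.57e-04, limma adjusted p = 0.0503). The clearance receptor VLDLR was 1.97-fold lower (DESeq2 adjusted p = 0.00583) and the collagen receptor MRC2, a partner of the urokinase receptor, 2.45-fold lower (DESeq2 adjusted p = 0.00593), and edgeR called none of the 3 (adjusted p = 0.0554 to 0.0761).

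Partners of the urokinase receptor in the membrane, 14 genes of integrins, formyl peptide receptors, growth factor receptors and caveolin, were split, with 4 positive and 4 negative differences in 8 tested genes and a median of 0.01. None passed in limma or edgeR. DESeq2 called 2 of 10, named after their values were seen and both higher, with 12.5% of all genes called in either direction. They were the caveolin CAV1, 1.56-fold higher (DESeq2 adjusted p = 0.0130, limma adjusted p = 0.0731), and the receptor EGFR, 1.82-fold higher (DESeq2 adjusted p = 0.0262, limma adjusted p = 0.106). The integrin chain ITGB1 had 1567 and 2169 RPM with control siRNA, 466 and 519 RPM in siLIX1L 1 and 2 and 2062 RPM in siLIX1L 3 (limma adjusted p = 0.269), so that here siLIX1L 3 lay with the controls and siLIX1L 1 and 2 apart. With the replicate number as a block, which leaves siLIX1L 3 out of the difference, ITGB1 passed (limma adjusted p = 0.0259). The fit without siLIX1L 3 and without the block gave the same difference, -1.71, and did not pass (limma adjusted p = 0.0715). ITGA5 was at 895 ± 234 against 853 ± 325 RPM (limma adjusted p = 0.856), with a sign that turned in 5 settings, quantile normalization among them. ITGA3 was at 617 ± 1.33 against 818 ± 127 RPM (limma adjusted p = 0.234). FPR2 had no read in any library.

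Plasmin's known targets were 13 genes, of which 6 were tested, 4 with positive and 2 with negative differences (median 0.47), and none passed. Over the 10 genes of the list that edgeR tested the median was -0.07, and none passed. DESeq2 called 2 of these 10, named after their values were seen and both lower, beside 6.22% of all genes called lower. They were the growth factor VEGFA, 2.51-fold lower (DESeq2 adjusted p = 0.00107, limma adjusted p = 0.0723), and the gelatinase MMP9, 6.26-fold lower (DESeq2 adjusted p = 0.00666, edgeR adjusted p = 0.0980). MMP9 had 2.02 and 14.4 RPM in siControl 1 and 2 and 0.740, 1.39 and 1.80 RPM in siLIX1L 1, 2 and 3. Thus siControl 1 lay near siLIX1L 3, and siControl 2 stood apart. FN1, fibronectin, was at 1947 ± 215 RPM (SD, n = 2) against 2743 ± 164 RPM (SD, n = 3, limma adjusted p = 0.137), and LAMC1, a laminin chain, at 641 ± 55.6 against 942 ± 219 RPM (limma adjusted p = 0.215). MMP1, a collagenase whose precursor plasmin activates, was at 685 and 145 RPM in siControl 1 and 2 and at 685, 732 and 947 RPM in siLIX1L 1, 2 and 3 (limma adjusted p = 0.217). Like SERPINB2, MMP1 was far higher in siControl 1 than in siControl 2, and without siControl 1 it passed as higher (log2 difference 2.36, limma adjusted p = 0.0160), while without siControl 2 the difference was 0.19 (limma adjusted p = 0.615). Each of these fits has a single control, assumed to vary like the other group. The fibrinogen genes FGA, FGB and FGG were at 0 to 0.134 RPM.

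Thrombin is a main target of SERPINE2, and 12 genes of thrombin, its receptors and its regulators were listed. Only 3 could be tested in limma, all with negative differences that did not pass. DESeq2 called 1 of the 8 it tested, beside 6.22% of all genes called lower and 12.5% in either direction. It was the thrombin receptor F2RL2, named after its values were seen, which was 4.52-fold lower (DESeq2 adjusted p = 4.24e-04, edgeR adjusted p = 0.0543). F3, or tissue factor, was at 903 ± 249 against 615 ± 26.5 RPM (limma adjusted p = 0.181), TFPI, its inhibitor, at 136 ± 16.9 against 106 ± 30.2 RPM (limma adjusted p = 0.418), and the thrombin receptor F2R at 114 ± 7.5 against 77.2 ± 27.1 RPM (limma adjusted p = 0.259). F2R was at 90.3 and 95.2 RPM in siLIX1L 1 and 2 and at 46.1 RPM in siLIX1L 3. Thrombin itself (F2) was at 0 to 0.199 RPM.

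Of 19 other serpins, 4 were tested in limma and none passed (3 negative, median -0.19). SERPINH1, a collagen chaperone without inhibitory activity, was the most abundant, at 315 ± 54.7 against 270.4 ± 81.0 RPM (limma adjusted p = 0.619), and its sign turned without siLIX1L 3. SERPINB6 was at 157 ± 52.9 against 105 ± 6.39 RPM (limma adjusted p = 0.207) and SERPINB8 at 28.2 ± 12 against 52.0 ± 6.55 RPM (limma adjusted p = 0.118). Among the clade B relatives of SERPINB2, edgeR called 1 gene, SERPINB7, named after its values were seen, beside 1.44% of all genes called by edgeR. Its level was 4.50 and 3.50 RPM with control siRNA and 11.7, 13.2 and 19.4 RPM with LIX1L siRNA, 3.69-fold higher (edgeR adjusted p = 0.0494), and lay under the minimum level of the limma test. Of 10 serpins tested, DESeq2 called SERPINB7 and SERPINB8 higher and SERPING1, the C1 inhibitor, lower (3.79-fold, DESeq2 adjusted p = 0.00111). Over all genes DESeq2 called 12.5% in either direction. SERPING1, named after its values were seen, was at 14.4 and 45.5 RPM in siControl 1 and 2. In siLIX1L 1, 2 and 3 it was at 7.81, 8.47 and 7.41 RPM. SERPINA3, SERPINB11 and SERPINB12 had no read in any library.

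**Figure D5:**
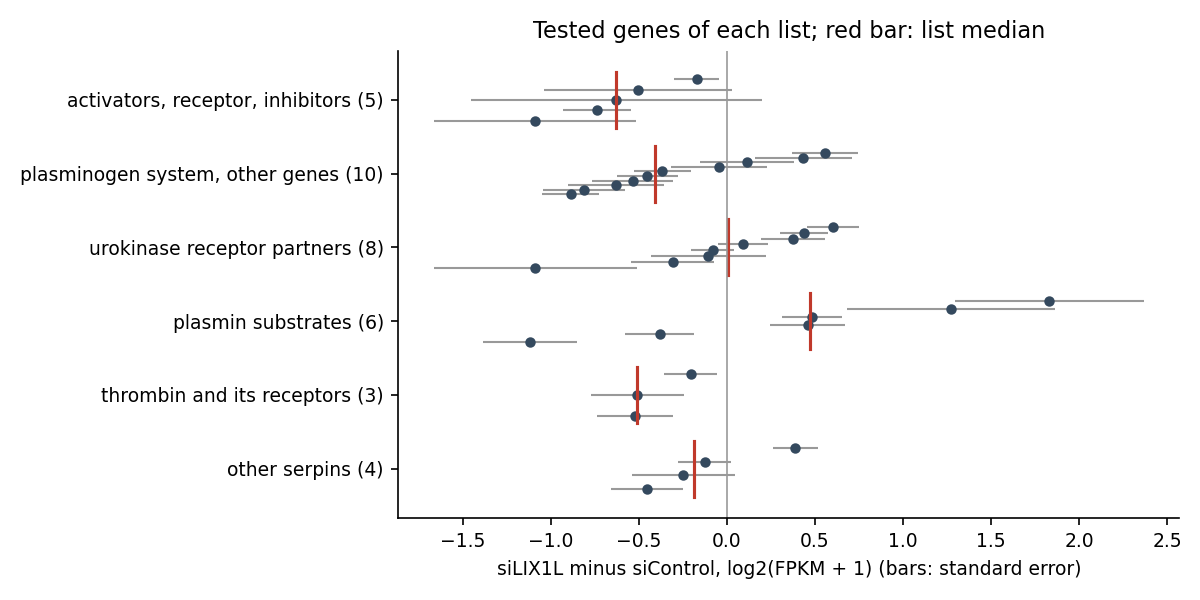
Difference between siLIX1L and siControl on the log2(FPKM + 1) scale, with bars of ± 1 standard error, for each tested gene of the 5 genes described and of each list (number tested in brackets). Red bars are list medians; none of the genes shown passed an adjusted p of 0.05, and the medians run from -0.63 for the 5 genes to 0.47 for plasmin substrates (6 genes; -0.07 over the 10 that edgeR tested).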

How the data were processed

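For each library the authors deposited a table of FPKM by Ensembl gene, per the file headers. For siLIX1L 3 it also gives the authors' gene length and raw read counts. Bowtie 0.12.2 and build mm8 are given per the submitters' processing notes. That is a mouse build, at odds with the human IDs, so the build and annotation are uncertain, and this early aligner cannot span splice junctions. Lengths equal the GENCODE 29 gene span, introns included, in 19567 of 19926 genes found there. FPKM times length, divided by its smallest step in each library (the worth of 1 read), came out as whole reads (tolerance 0.01) for 100% of values, equal to the deposited counts in all 19936 genes of siLIX1L 3.

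The test was limma 3.58.1 (R 4.3.3; robust eBayes with a trend) on log2(FPKM + 1), a scale that understates changes of low genes. It was two-sided, with Benjamini-Hochberg adjusted p under 0.05 as threshold, and covered the 6464 genes that reached 1 FPKM in 2 or more libraries. Alternatives were edgeR 4.0.16 (quasi-likelihood, TMM) and limma on log2(RPM + 0.5), both on genes reaching 10 recovered reads in 2 libraries, DESeq2 1.42.0, no minimum or one of 5 FPKM, a pseudocount of 0.1, median-ratio scaling, quantile normalization, a replicate block, siLIX1L 1 and 2 averaged, and each library left out. Fits were tested on simulated data. Folds are ratios of mean RPM.

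Members and lists were chosen with earlier results of these data known. Named were LIX1L, the 5 genes, in each list up to 4 genes past the threshold or else the 3 of highest mean RPM, and the 3 nearest profiles per gene, of which 1 is not reported here.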

Additional observations from a re-analysis of the deposited data

How the results depend on the processing

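PLAU (15 alternatives) and PLAUR (14) kept a negative difference and did not pass in any, and PLAT (15) kept a negative difference throughout. As the groups did not overlap in these genes, the settings that leave out, average or block libraries could not turn the sign. PLAT passed with DESeq2 (log2 fold change -0.83). Leaving out each library gave PLAT -0.96 to -0.51, SERPINB2 -1.50 to 0.49 and SERPINE2 -1.11 to 0.30. With the replicate number as a block SERPINE2 was at 0.30, LRP1 at -0.0164 and SERPINH1 at 0.0203; this block keeps only libraries 1 and 2 in the difference. Deviations from the group means correlated at -0.12 (number 1) and -0.10 (number 2) across genes. As the deviations of 2 controls mirror each other, these values cannot show whether the numbers pair the libraries. ITGA5 turned to 0.17 with quantile normalization and 0.0381 with siLIX1L 1 and 2 averaged. Leaving out each library gave ITGA5 -0.39 to 0.16, LRP1 -0.29 to 0.52 and SERPINH1 -0.42 to 0.0203. The 121 genes past the threshold became 188 with edgeR, 1673 with DESeq2, 233 with quantile normalization, 0 without a minimum level (3407 at an unadjusted p under 0.05), 0 with siLIX1L 1 and 2 averaged (975) and 0 to 1517 without each library in turn, 0 whenever a siLIX1L library was left out (882 to 1764 at an unadjusted p under 0.05). Of the 5 genes, none passed as reported, 1 with DESeq2 and 0 to 2 without each library. Of the listed genes, none passed as reported, 11 with DESeq2, 1 with edgeR, 1 with a pseudocount of 0.1, 1 with quantile normalization, 3 with the replicate block and 0 to 16 without each library. The causes of these changes were not tested. The smallest count of the 5 genes, 370 reads, has a counting error of 5.20%, so depth does not limit them; it limits listed genes near 3 reads.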
